A study of Mus musculus with 15 samples.

Results

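Translation initiation factors are the proteins that bring the initiator tRNA, the messenger RNA and the ribosomal subunits together at a start codon. Probe sets were taken as initiation factor genes where the platform's gene table lists a single symbol beginning with Eif and a digit. The sex-linked pair coding for eIF2 gamma was left out, and each gene was represented by the 1 probe set whose mean over the 15 arrays was highest. This gave 45 of the 18194 genes on the arrays, covered by 128 probe sets. No measured difference entered this rule, but the genes were chosen with earlier results of these data known. Of the 45 genes, 44 reached a log2 signal of 5 in the mean of at least 1 group and were tested. Eif4a3, a helicase of the exon junction complex, lay at the floor of 2.24 in every group on its 1 probe set and was not tested. Further factors, among them eIF2 alpha, eIF1, eIF4G1, eIF3g and eIF3j, have no probe set listed with 1 symbol in the gene table and were not analysed here.

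Mouse spleen lymphocytes of mixed B6x129 strain were profiled on 15 Affymetrix arrays in 5 groups of 3. B cells were taken at 0 h or 4 h after lipopolysaccharide (LPS) was given at 25 ug/ml, a component of bacterial walls that activates B cells through a Toll-like receptor. T cells were taken at 0 h, or 4 h or 14 h after concanavalin A (ConA) was given at 7.5 ug/ml, a lectin from jack beans that makes T cells divide. No group was kept in culture without a stimulus, so the effect of culture and that of the stimulus cannot be told apart. The labels name no genotype or age, and do not say whether replicates came from separate animals or cultures, so errors cover the spread between arrays, which may be technical.

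Values are log2 signals, on which 1 unit is a 2-fold difference, and errors are SDs over 3 arrays for levels and standard errors of the fit for changes. Equal RNA mass of 100 ng was labelled per sample, so RNA per cell is not visible, and fewer cells of a type cannot be told apart from less RNA per cell. The T cell marker list held 7 measured genes of 8, all at 5 or above in the T groups, and the B cell list held 7 of 8, all at 5 or above in the B groups. Of the B cell markers, 3 also reached 5 in T cells at 0 h, and 1 T cell marker reached 5 in B cells at 0 h. After LPS 6 of the 7 B cell markers fell, and their sum went from 85.2 to 85.5 down to 71.2 to 72.9. With ConA 5 of the 7 T cell markers fell, both at 4 h and at 14 h. Markers of other spleen cells moved with time as well. Summed over 8 monocyte, macrophage and neutrophil markers, the log2 level of B cells was 67.2 to 67.9 before and 42.9 to 45.0 with LPS, and 6 of the 7 tested fell. The sum over 4 erythroid markers went from 35.1 to 35.6 down to 28.2 to 29.3 with LPS, and from 26.9 to 27.2 down to 17.1 to 17.3 with ConA at 4 h. At 14 h of ConA it was 15.7 to 16.7. In T cells the monocyte, macrophage and neutrophil sum was 37.9 to 41.1 before ConA, 42.6 to 44.1 at 4 h and 28.9 to 30.2 at 14 h. At 4 h 2 of the 7 tested rose, S100a8 by 2.71 and S100a9 by 2.45, and 1 fell, Lyz2 (−0.98). The rest passed in neither direction at 4 h, and 5 of the 7 fell at 14 h. Both lists of other cells therefore moved with the B cell and the T cell comparisons, and their part in the changes below was not tested. A pair of T cell arrays, 0 h replicate 2 and ConA 4 h replicate 1, had a weak 5′ signal of the dap spike-in, with 3′ minus 5′ differences of 4.59 and 5.94 against 1.82 to 2.67 on the other T arrays and 0.90 to 1.44 on the B arrays. Eif4e, Eif4a1 and Eif4a2 are given with and without them below. Other calls against 0 h also changed without these 2 arrays. At 4 h Eif2a went from 0.26 (adjusted p = 0.058 in limma) to 0.39 (adjusted p = 0.0026), and Eif4ebp2 from −0.06 to −0.18 (adjusted p = 0.033). At 14 h Eif1b went from 0.12 to 0.20 (adjusted p = 0.0099 in limma) and Eif4ebp2 from −0.22 to −0.18 (adjusted p = 0.021), while Eif5 stayed at 0.18 but no longer passed (adjusted p = 0.063).

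Initiation proceeds by complexes. eIF2, loaded with GTP, carries the initiator tRNA; eIF2B recharges eIF2 with GTP; eIF3 is a large scaffold on the small ribosomal subunit; and the eIF4 proteins bind the cap and unwind the message. The 4 kinases that phosphorylate eIF2 alpha make eIF2 hold on to eIF2B and so lower initiation. Resting lymphocytes translate little, and growth in size after activation is known to come with a rise in protein synthesis.

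Several initiation factor genes, Eif4e and Eif4a1 among them, are known targets of Myc, the factor in the series' title, which binds the E-box CACGTG with its partner Max. RefSeq promoter windows (GRCm38.p6, 250 bases before to 50 after each start) were found for 36 of the 45 genes. The genes without a window in the table used were Eif1a, Eif2b3, Eif3e, Eif3h, Eif3i, Eif4e3, Eif4ebp1, Eif4g2 and Eif6. The letters CACGTG, which read the same on both strands, stood in a window of 9 of the 36 genes (25.0%), against 2187 of 27025 genes overall (8.09%) and 944 of the 7431 tested genes with a window (12.7%). They were found for Eif1b, Eif3a, Eif3f, Eif3k, Eif4a1, Eif4e, Eif4h, Eif5a and Eif5a2. Of the windows of the same length taken singly, 7.15% held the letters, and a gene with several windows, such as Eif5a with 6, has more room for them. The bases upstream of the start are shown for 2 of these genes that rose, 2 that fell after LPS, and for Eif3b, which rose without the letters; CACGTG is in capitals.
Eif4e, chr3:138527018-138527267, plus strand: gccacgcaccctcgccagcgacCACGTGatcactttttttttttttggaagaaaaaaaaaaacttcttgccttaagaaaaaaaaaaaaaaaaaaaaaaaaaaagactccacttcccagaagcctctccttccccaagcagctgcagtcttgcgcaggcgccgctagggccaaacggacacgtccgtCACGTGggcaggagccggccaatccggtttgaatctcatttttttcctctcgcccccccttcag
Eif4a1, chr11:69672424-69672673, minus strand: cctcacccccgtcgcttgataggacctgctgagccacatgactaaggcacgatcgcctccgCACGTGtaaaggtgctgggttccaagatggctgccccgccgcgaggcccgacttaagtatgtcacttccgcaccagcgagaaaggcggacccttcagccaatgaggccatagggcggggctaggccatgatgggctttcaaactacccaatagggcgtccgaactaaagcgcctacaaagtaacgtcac
Eif3f, chr7:108934165-108934414, plus strand: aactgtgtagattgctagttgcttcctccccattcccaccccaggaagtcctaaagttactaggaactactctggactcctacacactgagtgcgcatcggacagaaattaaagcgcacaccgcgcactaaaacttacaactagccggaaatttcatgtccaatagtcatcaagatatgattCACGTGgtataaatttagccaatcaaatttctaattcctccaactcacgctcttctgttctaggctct
Eif1b, chr9:120492356-120492605, plus strand: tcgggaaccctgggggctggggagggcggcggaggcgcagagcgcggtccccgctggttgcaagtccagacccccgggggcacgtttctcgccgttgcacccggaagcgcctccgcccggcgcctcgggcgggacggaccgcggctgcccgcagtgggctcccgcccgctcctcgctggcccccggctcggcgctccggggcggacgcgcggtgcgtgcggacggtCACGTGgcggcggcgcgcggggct
Eif3b, chr5:140419055-140419304, plus strand: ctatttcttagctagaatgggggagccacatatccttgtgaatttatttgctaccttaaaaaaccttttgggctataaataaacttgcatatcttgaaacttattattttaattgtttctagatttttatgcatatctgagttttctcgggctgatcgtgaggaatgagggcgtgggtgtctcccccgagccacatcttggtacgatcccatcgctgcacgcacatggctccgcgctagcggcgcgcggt
Eif4e, the cap-binding protein, has the letters 228 and 64 bases upstream in this window, and Eif4a1, the helicase of the cap complex, 189 bases upstream. In Eif3f, an eIF3 subunit, they begin 68 bases upstream, and in Eif1b, a start codon selection factor, 24 bases upstream. Among the genes with a window, the letters stood in 5 of 23 that rose after LPS (21.7%), in 3 of 7 that fell (42.9%) and in 1 of 5 that passed in neither direction (20.0%). A match describes the sequence and is not evidence of binding.

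After LPS, most initiation factor genes were higher in B cells. Of the 44 tested, 29 rose, 8 fell and 7 passed in neither direction at a Benjamini-Hochberg adjusted p under 0.05 in limma, where 37.6% of all 9045 genes tested rose and 42.3% fell. At least 2-fold rises were seen for 18, where 18.7% of all genes rose that far. The median change was 0.87 over the 44 genes and 0.84 over all 45, against −0.05 over all genes tested. Members of every complex were among the rises, and the eIF2 alpha kinases went in both directions.

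ConA gave smaller changes in T cells. At 4 h 25 rose, 5 fell and 14 passed in neither direction, with a median of 0.33 (0.30 over all 45 genes) against 0.00 for all genes tested, of which 33.4% rose and 32.5% fell. At least 2-fold rises numbered 4 (Eif1a, Eif2b3, Eif5b and Eif2b5), a share of 9.09% that lies near the 9.34% of all genes. At 14 h 31 rose and 13 passed in neither direction in limma, with a median of 0.56 (0.51 over all 45 genes) against 0.03, and 9 rose at least 2-fold, where 36.6% of all genes rose, 31.9% fell and 10.5% rose at least 2-fold. The number lower at 14 h was 0, also at an unadjusted p under 0.05. It was 1 to 3 under 5 alternatives and 1 in each of 2 fits that left out 1 array (ConA 4 h replicate 1 or ConA 14 h replicate 3). On the probe sets used, the largest drop was that of Eif4ebp2, at −0.22 ± 0.11 (adjusted p = 0.088 in limma). A dimmer probe set of Eif4ebp2 gave −1.13 at 14 h. Both T cell responses use the same 0 h arrays, so they are not independent.

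**Figure D1:**
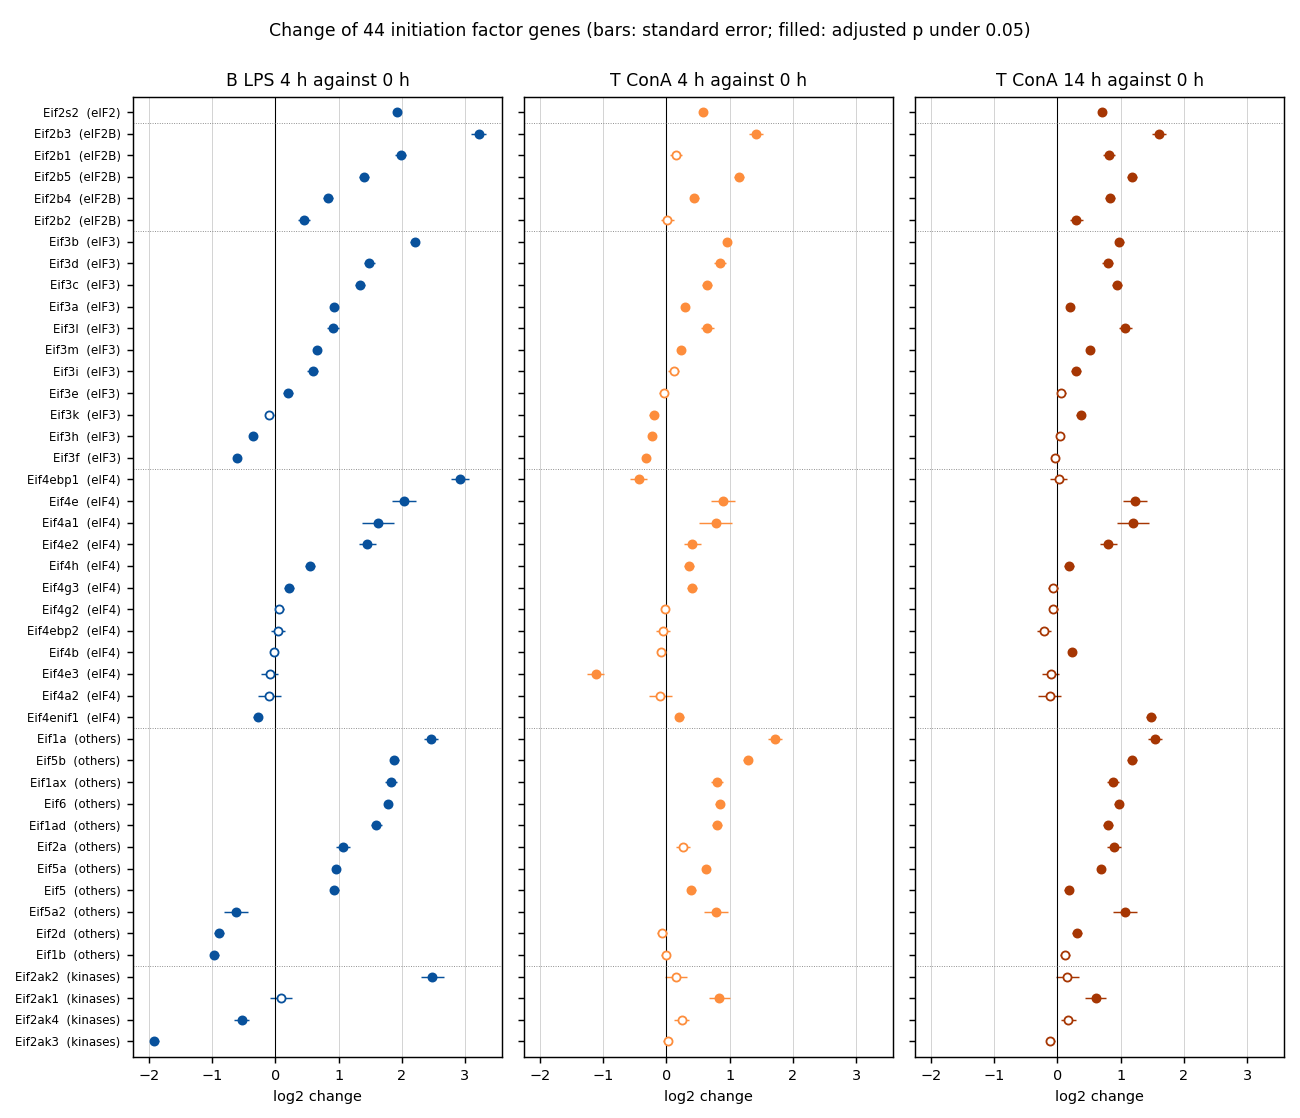
Log2 change of the 44 tested genes after LPS in B cells (left) and after ConA for 4 h (middle) or 14 h (right) in T cells. Genes are grouped by complex and ordered by the B cell change, bars are standard errors of the fit, and filled points have an adjusted p under 0.05. Filled points number 29 to the right and 8 to the left of 0 in the left panel, 25 and 5 in the middle, and 31 and 0 on the right.

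eIF2 was represented by Eif2s2, its beta subunit. Its level was 11.82, 11.87 and 11.88 on the 3 B cell arrays at 0 h and 13.89, 13.78 and 13.67 after LPS. T cells read 12.31, 12.30 and 12.32 at 0 h, 12.88, 12.87 and 12.89 at 4 h, and 12.99, 13.07 and 12.96 at 14 h. No array of a stimulated group reached down to its 0 h group. The change was 1.92 ± 0.06 after LPS (3.79-fold; adjusted p = 2.3e-12), 0.57 ± 0.06 at 4 h and 0.70 ± 0.06 at 14 h of ConA, all called in limma. All 6 of its probe sets were higher after LPS, by 1.12 to 2.87. At 4 h of ConA they gave 0.47 to 1.14, and at 14 h 0.12 to 1.78. The one of highest variance gave the 0.12 at 14 h, which did not pass (adjusted p = 0.61 in limma).

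All 5 eIF2B subunits on the arrays rose after LPS and at 14 h of ConA, and 3 of 5 rose at 4 h of ConA. Eif2b3, the gamma subunit that works with epsilon in nucleotide exchange, had the largest rise of all 44 genes in B cells. It read 7.04, 6.83 and 7.09 at 0 h and 10.30, 10.19 and 10.12 after LPS, a change of 3.21 ± 0.11 (9.28-fold; adjusted p = 4.1e-12 in limma). In T cells Eif2b3 read 7.32, 7.17 and 7.15 at 0 h, 8.37, 8.77 and 8.76 at 4 h, and 8.71, 8.84 and 8.92 at 14 h. Its groups did not overlap between 0 h and either ConA time, while those at 4 h and 14 h did, and the changes were 1.42 ± 0.11 and 1.61 ± 0.11. Eif2b3 has 1 probe set, so no second measurement of it exists.

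Eif2b5, the catalytic epsilon subunit, rose in both cell types and at both ConA times. Its B cell arrays read 8.89, 8.93 and 8.96 and then 10.25, 10.26 and 10.45. Its T cell arrays read 8.24, 8.30 and 8.48 at 0 h, 9.41, 9.56 and 9.49 at 4 h, and 9.55, 9.41 and 9.59 at 14 h. The changes were 1.40 ± 0.08 after LPS, 1.15 ± 0.08 at 4 h and 1.18 ± 0.08 at 14 h. The B and T responses at 4 h differed by 0.25 ± 0.12, which did not pass (adjusted p = 0.071 in limma). Without replicate 1 of T cells at 0 h the difference was 0.30 and passed (adjusted p = 0.045 in limma). Eif2b1, the regulatory alpha subunit that senses phosphorylated eIF2, behaved otherwise.

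Eif2b1 read 5.79, 5.74 and 5.50 in B cells at 0 h and 7.78, 7.63 and 7.55 after LPS. T cells read 6.79, 6.78 and 6.88 at 0 h, 6.79, 7.07 and 7.05 at 4 h, and 7.63, 7.62 and 7.63 at 14 h. The T cell groups overlapped at 4 h and stood apart at 14 h. The overlap at 4 h rests on the array that reads 6.79, replicate 1, which has the weak 5′ spike-in signal. The change was 1.98 ± 0.09 after LPS but 0.15 ± 0.09 at 4 h of ConA (adjusted p = 0.17 in limma), then 0.81 ± 0.09 at 14 h. Without that array the 4 h change was 0.24 and passed (adjusted p = 0.032 in limma), and without both arrays of weak spike-in signal it was 0.22 ± 0.10 (adjusted p = 0.075). Eif2b4 (delta) rose by 0.84 ± 0.08, 0.44 ± 0.08 and 0.83 ± 0.08 in the 3 comparisons. Eif2b2 (beta) changed least after LPS, by 0.45 ± 0.10, with 0.01 ± 0.10 at 4 h and 0.30 ± 0.10 at 14 h of ConA; the last did not pass with cyclic loess normalization (0.23) or without 0 h replicate 3 (0.27).

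Among 11 measured eIF3 subunits, 8 rose and 2 fell after LPS, 6 rose and 3 fell at 4 h of ConA, and 8 rose at 14 h. Eif3b, a core scaffold subunit, rose most. It read 8.83, 8.83 and 8.75 in B cells at 0 h and 10.97, 10.99 and 11.07 after LPS, a change of 2.21 ± 0.07 (4.62-fold; adjusted p = 1.5e-12 in limma). Eif3b in T cells was at 9.29, 9.28 and 9.30 before ConA, 10.20, 10.32 and 10.22 at 4 h, and 10.29, 10.13 and 10.38 at 14 h. The T cell rise was 0.96 ± 0.07 at 4 h, and the change from 4 h to 14 h was 0.02 ± 0.07 (adjusted p = 0.83 in limma). Eif3d, which has been described as a second cap-binding subunit, read 11.45, 11.48 and 11.41 and then 12.89, 12.92 and 12.99 in B cells. Its change was 1.49 ± 0.09 after LPS, 0.85 ± 0.09 at 4 h and 0.79 ± 0.09 at 14 h of ConA.

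Eif3c, a core subunit, rose by 1.34 ± 0.08, 0.64 ± 0.08 and 0.95 ± 0.08 in the same order, and Eif3a, the largest subunit, by 0.93 ± 0.06, 0.30 ± 0.06 and 0.20 ± 0.06; the last was 0.02 with cyclic loess normalization and did not pass. Eif3l, a peripheral subunit, was the eIF3 gene with the largest rise at 14 h. Its T cell arrays read 11.30, 10.97 and 11.13 at 0 h, 11.55, 11.85 and 11.93 at 4 h, and 12.16, 12.18 and 12.28 at 14 h, and these 3 groups did not overlap. Eif3l changed by 0.64 ± 0.10 at 4 h and 1.07 ± 0.10 at 14 h, beside 0.91 ± 0.10 after LPS. Eif3m and Eif3i rose by 0.66 ± 0.05 and 0.59 ± 0.08 after LPS. Eif3e rose by 0.20 ± 0.08, but not with quantile (0.10) or cyclic loess (0.06) normalization, nor without replicate 1 or 2 of either B cell group.

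The falls were in Eif3f and Eif3h, which form a subunit pair of the MPN type in the eIF3 octamer. Eif3f read 13.22, 13.21 and 13.22 on the B cell arrays before LPS and 12.62, 12.58 and 12.62 with it, which did not overlap, a change of −0.61 ± 0.06 (adjusted p = 2.5e-07 in limma). It fell by 0.32 ± 0.06 at 4 h of ConA and was back within 0.05 ± 0.06 of its 0 h level at 14 h, where it no longer passed (adjusted p = 0.51). Eif3h fell by 0.35 ± 0.06 after LPS and by 0.23 ± 0.06 at 4 h of ConA, with 0.04 ± 0.06 at 14 h. Eif3k, a small peripheral subunit, fell by 0.20 ± 0.07 at 4 h and rose by 0.37 ± 0.07 at 14 h, while its B cell change of −0.10 ± 0.07 did not pass. The fall at 4 h did not pass with equal array medians (−0.16), nor without 0 h replicate 2 (−0.14) or ConA 4 h replicate 2 (−0.18) or 3 (−0.17).

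**Figure D2:**
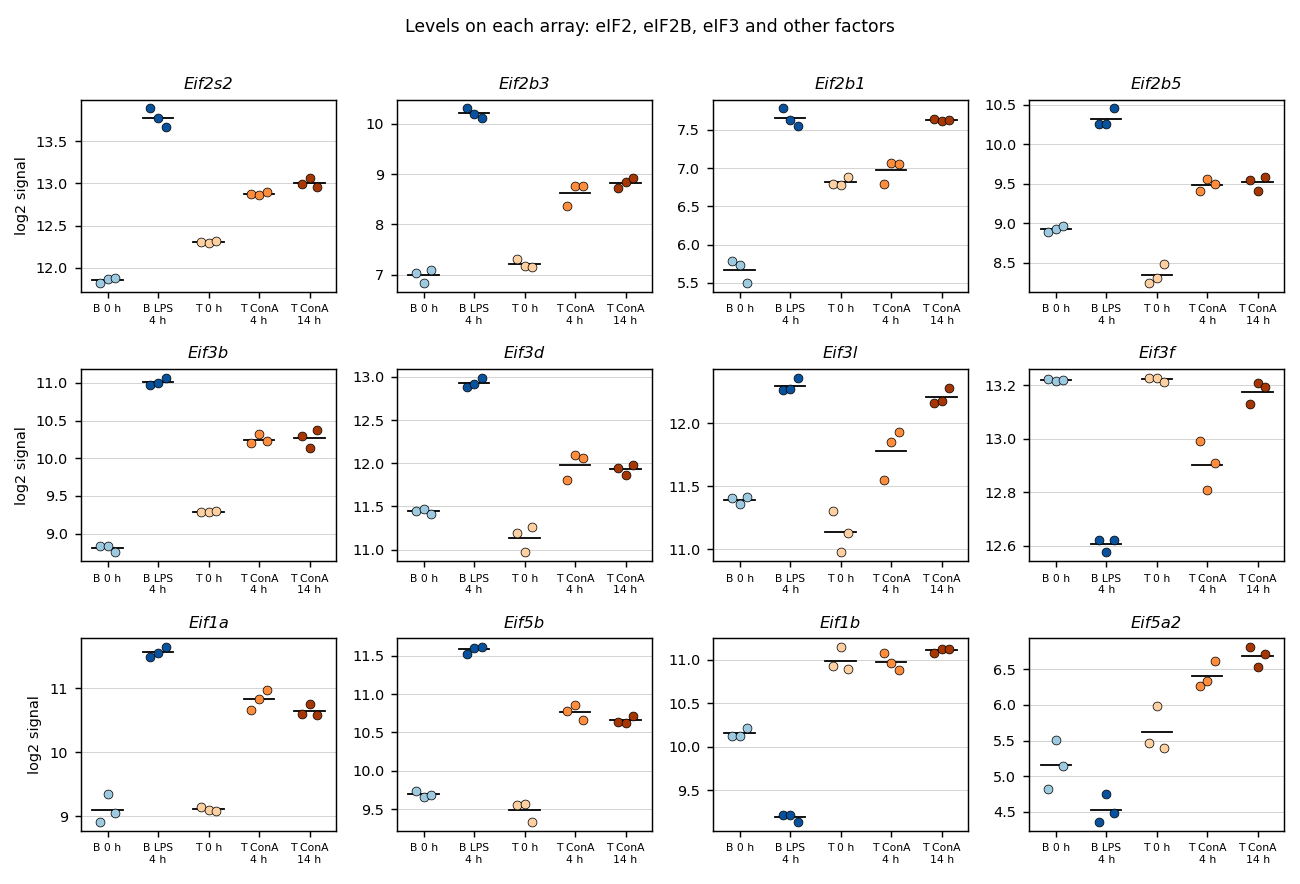
Log2 signal on each of the 15 arrays for 12 genes of eIF2, eIF2B, eIF3 and the other factors, by group; points are arrays and lines are group means, and each panel has its own axis. Eif2b3 goes from 6.99 to 10.20 in the B cell means and from 7.21 to 8.63 and 8.82 in T cells, while Eif3f and Eif1b are lower after LPS.

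The 12 measured eIF4 genes were split. After LPS 6 rose, 1 fell and 5 passed in neither direction; the counts were 6 rising and 2 falling at 4 h of ConA and 6 rising at 14 h. Eif4e, which binds the cap, read 10.09, 9.98 and 10.13 in B cells at 0 h and 12.10, 12.09 and 12.11 after LPS, a change of 2.03 ± 0.19 (4.09-fold; adjusted p = 2.0e-07 in limma). T cells read 10.37, 9.79 and 10.40 at 0 h, 10.57, 11.40 and 11.30 at 4 h, and 11.35, 11.39 and 11.49 at 14 h. The low value in each of the first 2 T groups was on the array with the weak 5′ spike-in signal. Eif4e rose by 0.90 ± 0.19 at 4 h and 1.22 ± 0.19 at 14 h with all arrays, and by 0.96 ± 0.07 and 1.03 ± 0.07 without those 2 arrays. A further Eif4e probe set read 7.48, 7.42 and 7.45 at 0 h and 8.73, 8.75 and 8.84 at 4 h, and showed no such low array.

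Eif4a1 followed the same course, at 12.78, 12.83 and 12.85 in B cells and 14.39, 14.46 and 14.50 after LPS. In T cells it read 12.68, 11.93 and 12.94 at 0 h, 12.62, 13.70 and 13.57 at 4 h, and 13.70, 13.65 and 13.79 at 14 h, so that the 0 h and 4 h groups overlapped. The low readings again came from the same pair of arrays, 0.89 and 1.01 under the mean of the other arrays of their groups. Its change was 1.62 ± 0.26 after LPS, 0.78 ± 0.26 at 4 h (adjusted p = 0.017 in limma) and 1.20 ± 0.26 at 14 h. Without the 2 arrays the T cell changes were 0.82 ± 0.09 and 0.90 ± 0.08. The rise at 4 h did not pass when only the compared groups were fitted (adjusted p = 0.13 in limma), or with no filter on low values (adjusted p = 0.062). It did not pass either without 0 h replicate 2 (0.48) or without ConA 4 h replicate 2 (0.57) or 3 (0.64). Another probe set also read low on 0 h replicate 2 (11.98) and ConA 4 h replicate 1 (12.62). A further one showed no overlap between 0 h and 4 h, with a change of 0.67. On it Eif4a1 read 11.94, 11.97 and 11.96 at 0 h and 12.54, 12.71 and 12.64 at 4 h. At 0 h its close relative Eif4a2 stood at 13.82 ± 0.01 in B and 12.91 ± 0.23 in T cells, and it passed in neither direction after either stimulus; without the 2 arrays it fell at 14 h by 0.25 ± 0.08 (adjusted p = 0.015 in limma).

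**Figure D3:**
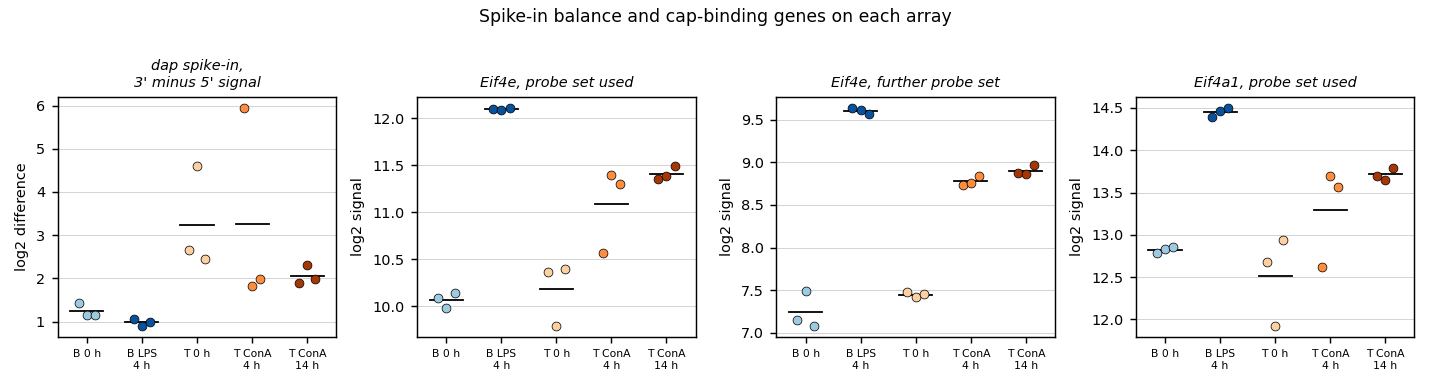
The 3′ minus 5′ difference of the dap spike-in (left), and the log2 signal of 2 Eif4e probe sets and the Eif4a1 probe set used, on each of the 15 arrays by group; points are arrays and lines are group means. The spike-in difference is 4.59 and 5.94 on 2 T cell arrays, where the used probe sets of Eif4e and Eif4a1 read low and the further Eif4e probe set does not.

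Of the scaffold genes, Eif4g2 had a change of 0.06 ± 0.06 after LPS on the probe set used, which did not pass (adjusted p = 0.37 in limma). Other probe sets of Eif4g2, at 0 h levels of 13.38 and 10.18 in B cells, gave 0.41 and 0.35, so no direction is drawn. Eif4g3 rose by 0.40 ± 0.08 at 4 h of ConA and fell by 0.48 ± 0.08 from 4 h to 14 h. Its rise of 0.22 ± 0.08 after LPS did not pass with quantile (0.10) or cyclic loess (0.16) normalization, nor without 0 h replicate 2 or 3 or LPS replicate 3, at 0.19 to 0.21. Helicase partners Eif4b and Eif4h differed, with −0.01 ± 0.06 and 0.55 ± 0.08 after LPS; only the latter passed, and a further, dim probe set of Eif4h went the other way (−2.04). Eif4e2, a cap-binding relative linked to repression, rose by 1.46 ± 0.13 after LPS, 0.41 ± 0.13 at 4 h and 0.80 ± 0.13 at 14 h of ConA. At 4 h it did not pass without 0 h replicate 3 (0.35) or ConA 4 h replicate 1 (0.33). Further Eif4e2 probe sets that reached 5 gave 1.11, 0.54, −0.47 and 0.35 at 14 h.

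Proteins that hold eIF4E away from the cap complex did not move together. Eif4ebp1, the main repressor of this kind under mTOR control, read 6.33, 6.29 and 6.61 in B cells at 0 h and 9.42, 9.52 and 9.05 after LPS. T cells read 6.74, 6.77 and 6.66 at 0 h, 6.44, 6.09 and 6.32 at 4 h, and 6.66, 6.96 and 6.61 at 14 h. Every LPS array lay above all the others, and the T cell arrays at 4 h lay below those at 0 h. Eif4ebp1 rose by 2.92 ± 0.14 after LPS (7.57-fold; adjusted p = 1.1e-10 in limma) and fell by 0.44 ± 0.14 at 4 h of ConA (adjusted p = 0.012). Without ConA 4 h replicate 2 that fall was −0.34 and did not pass (adjusted p = 0.059 in limma). A second probe set changed by 2.58 and −0.81.

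For Eif4ebp2, the second repressor, the B cell arrays read 9.99, 10.07 and 10.12 and then 10.14, 10.07 and 10.09, and the groups overlapped. The change of 0.04 ± 0.11 did not pass (adjusted p = 0.75 in limma), but 2 dimmer probe sets gave −0.62 and −0.87, so no direction is drawn. In T cells the probe set used gave −0.06 at 4 h and −0.22 at 14 h of ConA. The 2 dimmer ones gave −1.09 and −0.05 at 4 h, and −1.13 and −0.23 at 14 h. The size of the T cell change thus depends on the probe set. Eif4enif1, which carries eIF4E into the nucleus, changed late. Its T cell arrays read 9.50, 9.43 and 9.34 at 0 h, 9.53, 9.66 and 9.69 at 4 h, and 10.85, 10.94 and 10.92 at 14 h, and its B cell arrays lay between 8.99 and 9.40. The change from 4 h to 14 h was 1.28 ± 0.07 (2.42-fold; adjusted p = 1.8e-08 in limma), against 0.21 ± 0.07 in the first 4 h and −0.28 ± 0.07 after LPS. The small rise in the first 4 h (adjusted p = 0.023 in limma) did not pass without 0 h replicate 3 (0.16), without ConA 4 h replicate 2 (0.19) or 3 (0.17), or with cyclic loess normalization (0.14).

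Eif4e3, an atypical cap-binding protein, dipped and recovered in T cells. Its level was 7.48, 7.56 and 7.61 at 0 h, 6.49, 6.33 and 6.47 at 4 h, and 7.54, 7.72 and 7.07 at 14 h. The 4 h arrays lay below all others in T cells. The change was −1.12 ± 0.14 at 4 h (2.18-fold lower; adjusted p = 7.8e-06 in limma) and 1.01 ± 0.14 from 4 h to 14 h. In B cells the change of −0.09 ± 0.14 did not pass, while the second Eif4e3 probe set gave −1.08 in B cells and −0.79 at 4 h in T cells.

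Of the 11 other factors, 8 rose and 3 fell after LPS, 8 rose at 4 h of ConA and 10 at 14 h. Eif1a, coding for eIF1A, which opens the decoding site of the small subunit, read 8.91, 9.35 and 9.05 in B cells at 0 h and 11.49, 11.56 and 11.64 after LPS. Its T cell arrays read 9.14, 9.09 and 9.08 at 0 h, 10.67, 10.83 and 10.97 at 4 h, and 10.60, 10.75 and 10.59 at 14 h. Both stimuli separated all arrays from 0 h. The change was 2.46 ± 0.11 after LPS (5.51-fold), and 1.72 ± 0.11 and 1.54 ± 0.11 after ConA. Eif1ax, a near-identical gene that could share signal with it, rose by 1.83 ± 0.10, 0.81 ± 0.10 and 0.88 ± 0.10.

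Eif5b, the GTPase that joins the ribosomal subunits, read 9.74, 9.66 and 9.69 in B cells at 0 h and 11.53, 11.60 and 11.61 after LPS, a change of 1.88 ± 0.07. T cells read 9.55, 9.56 and 9.33 at 0 h, 10.78, 10.86 and 10.66 at 4 h, and 10.64, 10.62 and 10.72 at 14 h, with changes of 1.28 ± 0.07 and 1.18 ± 0.07. The groups were apart from 0 h in each case. Eif6, which keeps the large subunit free, rose by 1.78 ± 0.06, 0.84 ± 0.06 and 0.97 ± 0.06. A dimmer Eif6 probe set gave 0.01 after LPS, 0.65 at 4 h and 1.49 at 14 h of ConA. Eif1ad, named for its eIF1A-like domain, rose by 1.60 ± 0.08, 0.80 ± 0.08 and 0.80 ± 0.08. Eif5a, which helps ribosomes through difficult peptide bonds, rose by 0.97 ± 0.06, 0.62 ± 0.06 and 0.69 ± 0.06. Eif5, the GTPase activator of eIF2, rose by 0.93 ± 0.07 after LPS and 0.39 ± 0.07 at 4 h, but its probe sets disagree in T cells, 1 of them giving −0.69 at 4 h.

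The 3 falls after LPS among these factors were in Eif1b, Eif2d and Eif5a2. Eif1b, a paralogue of eIF1, went from 10.16 ± 0.05 to 9.19 ± 0.04 (−0.97 ± 0.08; adjusted p = 3.2e-08 in limma), with −0.01 ± 0.08 at 4 h of ConA. Eif2d, which delivers tRNA without eIF2, fell by 0.89 ± 0.08 after LPS and rose by 0.32 ± 0.08 at 14 h of ConA. Eif5a2, the rarer eIF5A isoform, fell by 0.62 ± 0.19 in B cells, at levels of 5.16 ± 0.35 and 4.53 ± 0.20 that lie near the filter of 5, and rose by 0.78 ± 0.19 and 1.07 ± 0.19 in T cells.

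The 4 eIF2 alpha kinases were all higher in B cells than in T cells at 0 h. Eif2ak2 (PKR, an interferon-inducible sensor of double-stranded RNA) was higher by 2.85 ± 0.18 and Eif2ak1 (HRI, the heme-regulated kinase) by 1.99 ± 0.17. Eif2ak3 (PERK, of the endoplasmic reticulum) was higher by 1.76 ± 0.07 and Eif2ak4 (GCN2, the amino acid sensor) by 1.26 ± 0.12. The sizes depended on the probe set. Further ones that reached 5 gave 0.67 and 3.62 for Eif2ak2, and 3.87, 0.73 and 0.28 for Eif2ak1. Over all 44 genes, 10 were higher and 18 lower in B cells, where 25.5% of all genes were higher and 51.1% lower, and the median of −0.13 turned to 0.07 with cyclic loess normalization. Marker sums of other cells differed as well. That of monocytes, macrophages and neutrophils was 67.2 to 67.9 in B cells at 0 h and 37.9 to 41.1 in T cells, and the erythroid sum was 35.1 to 35.6 against 26.9 to 27.2. Within the erythroid list Alas2 (10.16 against the floor of 2.24), Klf1 (9.18 against 7.94) and Epor (6.78 against 4.69) had the higher mean in B cells, and Car1 (9.17 against 12.18) in T cells. Their part in the kinase differences was not tested.

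After LPS these kinases parted. Eif2ak2 read 7.78, 8.16 and 8.27 in B cells at 0 h and 10.46, 10.65 and 10.54 after LPS, a rise of 2.49 ± 0.18 (5.60-fold; adjusted p = 1.1e-08 in limma), and all 3 of its probe sets were higher, by 2.49 to 3.44. Eif2ak3 read 10.27, 10.19 and 10.31 and then 8.29, 8.36 and 8.37, a fall of 1.91 ± 0.07 (3.77-fold lower; adjusted p = 7.5e-12). Eif2ak4 read 8.45, 8.56 and 8.48 and then 8.19, 7.88 and 7.83, a fall of 0.53 ± 0.12. Eif2ak1 changed by 0.09 ± 0.17 (adjusted p = 0.64 in limma). The Eif2ak3 level after LPS, 8.34 ± 0.05, lay near the 8.50 ± 0.04 of T cells at 0 h.

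In T cells Eif2ak1 was the kinase that passed with all arrays as deposited. Its arrays read 6.57, 6.82 and 6.07 at 0 h, 7.68, 7.20 and 7.10 at 4 h, and 7.15, 7.10 and 7.03 at 14 h, so both ConA groups lay above 0 h. The rise was 0.84 ± 0.17 at 4 h and 0.60 ± 0.17 at 14 h on the probe set used. Further Eif2ak1 probe sets that reached 5 gave 0.78, 0.15 and 0.54 at 4 h, and 1.25, −0.60 and 0.14 at 14 h. Of 4 tested erythroid markers, 3 fell at each time, and their part in the Eif2ak1 change was not tested. Eif2ak3 stayed between 8.24 and 8.54 on all 9 T cell arrays, and Eif2ak2 between 4.85 and 5.56 on the probe set used; a further probe set of it gave 0.86 at 4 h and −0.76 at 14 h. Eif2ak4, at 0.24 (adjusted p = 0.095 in limma) and 0.17 (adjusted p = 0.23), passed with quantile normalization (0.27 at 4 h and 0.26 at 14 h) and without 0 h replicate 1 (0.37 and 0.30). Eif2ak3 at 14 h, −0.12, passed without ConA 14 h replicate 3 (−0.18; adjusted p = 0.046 in limma).

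**Figure D4:**
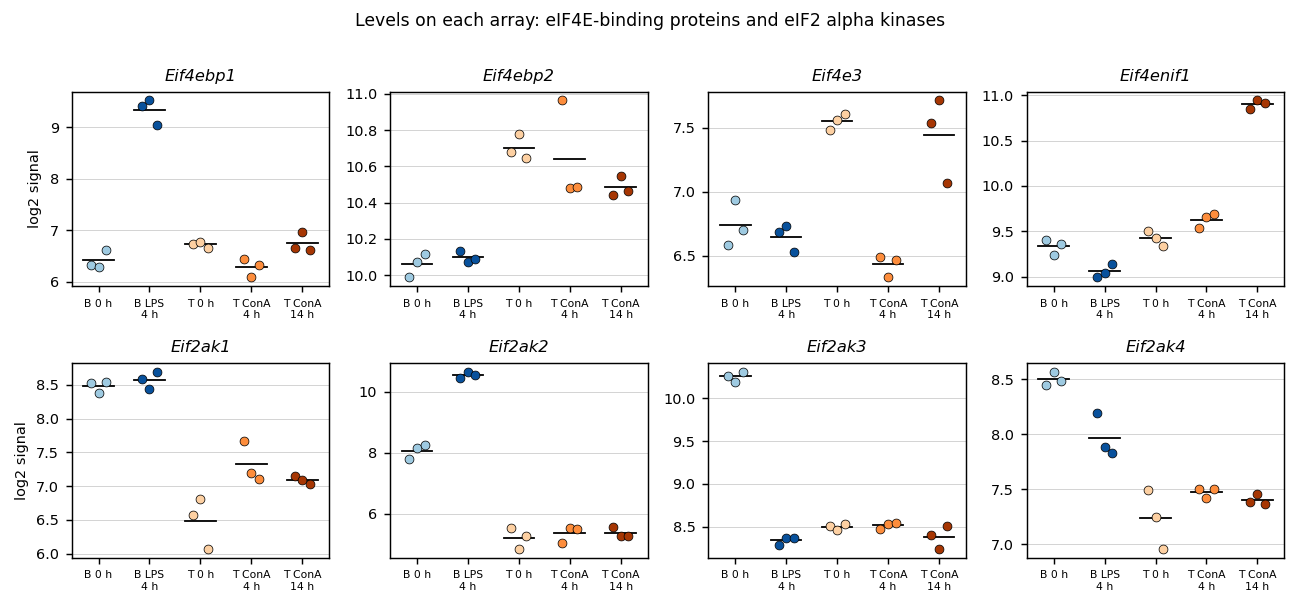
Log2 signal on each of the 15 arrays for the eIF4E-binding genes Eif4ebp1, Eif4ebp2 and Eif4enif1, the atypical cap-binding gene Eif4e3 and the 4 eIF2 alpha kinases, by group; points are arrays and lines are group means, and each panel has its own axis. Eif4ebp1 and Eif2ak2 are highest after LPS, Eif4enif1 at 14 h of ConA, and Eif2ak3 goes from 10.25 to 8.34 with LPS.

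Between 4 h and 14 h of ConA, 16 genes rose and 2 fell, where 27.4% of all genes rose and 21.5% fell. Some of the 16, such as Eif4e3 and Eif3k, had fallen in the first 4 h. The median change was 0.13 against 0.02 over all genes. Eif4enif1 and Eif4e3 led the rises, followed by Eif2b1 (0.66 ± 0.09), Eif2a (0.63 ± 0.11), which codes for an alternative tRNA-binding factor, and Eif3k (0.57 ± 0.07). Those that fell were Eif4g3 and Eif5, by 0.48 ± 0.08 and 0.21 ± 0.07. Without the 2 arrays of weak spike-in signal Eif5 no longer passed (−0.21; adjusted p = 0.051 in limma), while Eif4a2 fell (−0.29 ± 0.08; adjusted p = 0.0098) and Eif1b rose (0.19 ± 0.06; adjusted p = 0.018). The Eif2a value changed with the probe set: the one of highest variance gave 0.22, which did not pass (adjusted p = 0.50 in limma).

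The B and T responses at 4 h use no array in common, so the genes can be set side by side. Both stimuli raised 22 of the 44 genes, and the rise was larger in B cells for 21 of these. Eif3f and Eif3h fell in both, Eif4ebp1 rose in B cells and fell in T cells, and Eif4enif1 and Eif5a2 did the reverse. A further 10 passed in B cells alone, 3 in T cells alone and 4 in neither. These side-by-side counts were not made over all genes tested, so they are not read as particular to initiation factors. Of all genes tested, 18.7% rose at least 2-fold after LPS and 9.34% at 4 h of ConA. Across the 44 genes the changes correlated with Pearson's r of 0.57, a description only, since genes are not independent replicates and values come from the same probe sets. The interaction, which tests the difference between the responses, was called higher in B cells for 24 genes and lower for 8, where 31.3% and 34.8% of all genes were. The median difference was 0.43, against −0.03 for all genes. Dose, agent and cell type all differ between the responses, and so cannot be told apart.

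**Figure D5:**
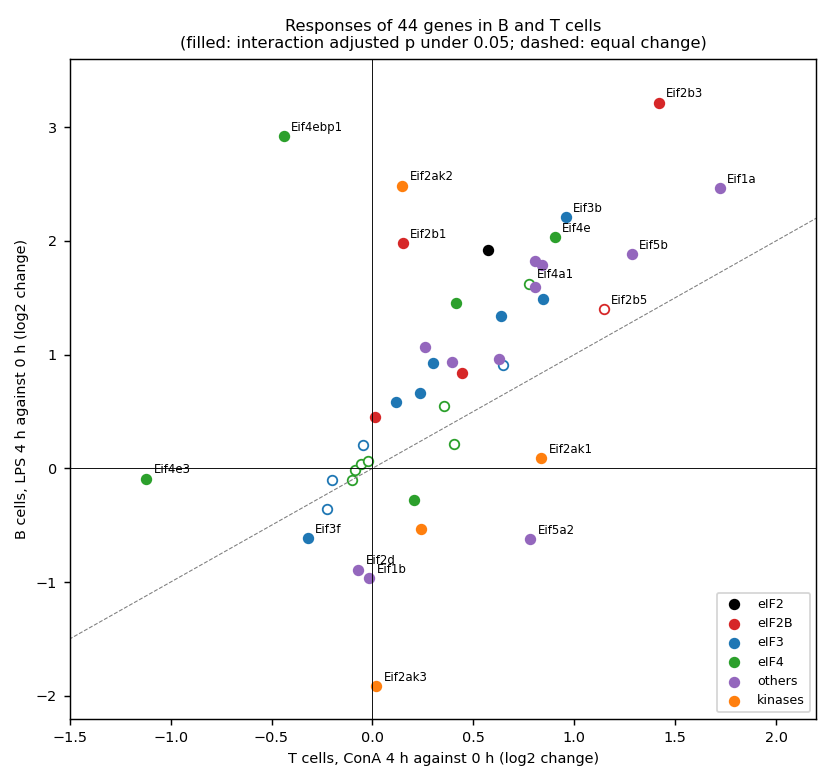
Log2 change after LPS in B cells (vertical) against that after 4 h of ConA in T cells (horizontal) for the 44 tested genes, coloured by complex; filled points have an interaction with an adjusted p under 0.05, and the dashed line marks equal change. Most points lie above the line in the upper right, with Eif4ebp1 at 2.92 and −0.44 and Eif2ak3 at −1.91 and 0.02 apart from the rest.

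Genes that work with the initiation factors were counted from 3 lists, and the counts are read against the shares of all genes tested: 37.6% rose and 42.3% fell after LPS, 33.4% and 32.5% at 4 h of ConA, and 36.6% and 31.9% at 14 h. Of 9 tested elongation and termination genes, 6 rose and 2 fell after LPS, 4 rose and 1 fell at 4 h of ConA, and 5 rose and 1 fell at 14 h. The release factor Etf1 rose by 2.16 ± 0.07 after LPS and 1.02 ± 0.07 at 4 h, and the elongation factor kinase Eef2k fell by 0.66 ± 0.12 and 0.94 ± 0.12. Among 11 tested genes that control cap binding, 6 rose and 4 fell after LPS, 6 rose and 4 fell at 4 h, and 5 rose and 2 fell at 14 h. Mtor rose by 1.55 ± 0.06 after LPS and 0.40 ± 0.06 at 4 h. Pdcd4, an inhibitor of eIF4A, fell by 1.18 ± 0.15 and 1.53 ± 0.15, and Mknk2, a kinase of eIF4E, by 1.34 ± 0.08 and 0.25 ± 0.08.

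All 10 partners of eIF2 and eIF5A were tested: 8 rose and 2 fell after LPS, 4 rose at 4 h of ConA, and 4 rose and 2 fell at 14 h. Ppp1r15a, the stress-induced subunit of the eIF2 alpha phosphatase, rose by 2.24 ± 0.09 after LPS, with 0.05 ± 0.09 at 4 h of ConA (adjusted p = 0.66 in limma). Atf4, whose message is translated when eIF2 alpha is phosphorylated, rose by 1.52 ± 0.11 and 0.64 ± 0.11, and Ddit3, a stress gene downstream of it, by 1.65 ± 0.11 after LPS. Dohh, the enzyme that completes the hypusine of eIF5A, rose by 1.42 ± 0.12, 0.73 ± 0.12 and 0.93 ± 0.12 in the 3 comparisons.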

How the data were processed

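The authors deposited log2 signals from GCRMA, per the submitters' processing notes. That method corrects each array's background by probe sequence and normalizes the arrays to each other; no version of it was stated. Values range from a floor of 2.24 to 15.9, array medians lay between 2.42 and 2.57, and arrays of a group correlated at 0.995 to 0.999. Gene names came from the platform's table, checked by Entrez number against RefSeq (34754 of 34958 with 1 symbol matched, 0 symbols changed); 932 with several genes and 9211 unnamed were left out.

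The probe set with the highest mean stood for each gene, and 9045 of 18194 genes with a highest group mean of at least 5 were tested. The 5 group means were modelled over 15 arrays in R 4.3.3 by limma 3.58.1 (lmFit, eBayes with 10 residual and 3.16 prior degrees of freedom). Adjusted p-values are Benjamini-Hochberg over all genes tested, called under 0.05, and the script was tested on simulated data. For arrays, their number limits the precision.

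The genes, partner lists, marker lists and alternatives were chosen with earlier results of these data known. Every gene is named, and array values are given for the 2 called genes of each complex with the largest change in each of the 3 stimulus comparisons, for Eif4e, Eif4ebp1 and Eif4ebp2, and for the kinases, 18 genes in all. Eif4a1, Eif3f and the partner genes were given after their values were seen. Replicate numbers did not pair arrays: same-numbered arrays of different groups correlated at −0.46 to 0.24 over 30 pairs. Alternatives were other normalizations, filters, probe sets, spread estimates and sample choices.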

Additional observations from a re-analysis of the deposited data

Results flagged for a closer look

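The response to LPS in B cells and that to ConA at 4 h in T cells differed for 32 of the 44 genes by the interaction test in limma (adjusted p under 0.05). Of these, 24 were higher and 8 lower in B cells, where 31.3% of all genes tested were higher and 34.8% lower. Such differences were thus common among all genes. Values below are the B cell log2 change minus the T cell one. The cell-marker and spike-in values that moved with these comparisons are given with the first results, and their part in the differences was not tested.

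Among the eIF2 and eIF2B genes, the difference was 1.35 for Eif2s2, 1.83 for Eif2b1, 1.79 for Eif2b3, 0.44 for Eif2b2 and 0.39 for Eif2b4. In eIF3 it was 1.25 for Eif3b, 0.70 for Eif3c, 0.64 for Eif3d, 0.63 for Eif3a, 0.47 for Eif3i and 0.43 for Eif3m, while Eif3f had −0.29. In the eIF4 group Eif4ebp1 had the largest difference of all, 3.36, followed by 1.13 for Eif4e, 1.04 for Eif4e2 and 1.03 for Eif4e3, with −0.48 for Eif4enif1. The value for Eif4e3 rests on the T cell dip and was −0.28 (adjusted p = 0.24 in limma) on its other probe set.

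Of the other factors, Eif1ax differed by 1.02, Eif6 by 0.94, Eif2a by 0.81, Eif1ad by 0.80, Eif1a by 0.74, Eif5b by 0.60, Eif5 by 0.54 and Eif5a by 0.34. The differences were negative for Eif2d (−0.82), Eif1b (−0.95) and Eif5a2 (−1.40). Among the kinases Eif2ak2 had 2.34, Eif2ak1 −0.75, Eif2ak4 −0.77 and Eif2ak3 −1.93. Eif2ak1 did not pass with its highest-variance probe set (−0.55, adjusted p = 0.22 in limma).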

How the results depend on the processing

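Counts of genes that rose or fell after LPS and at 4 h of ConA stayed within 1.5 times of the values given under every alternative that used all arrays of the compared groups. Leaving out 1 array gave 27 to 29 rises and 8 falls after LPS, 23 to 26 rises and 3 to 6 falls at 4 h (3 without ConA 4 h replicate 2), 29 to 31 rises and 0 to 1 falls at 14 h, and 13 to 16 rises and 1 to 3 falls from 4 h to 14 h (1 without ConA 4 h replicate 2). The median at 14 h then lay between 0.457 (without 0 h replicate 3) and 0.586. Falls at 14 h numbered 2 with quantile normalization, 3 with cyclic loess, 1 with only the groups compared, 3 with the highest-variance probe set and 2 without both T cell arrays of weak 5′ spike-in signal. Cyclic loess gave a median of 0.419 at 14 h, 4 falls from 4 h to 14 h, and a median of 0.069 for B against T cells at 0 h, in place of −0.126; the cause was not tested. In that last comparison the split was 14 higher and 13 lower with cyclic loess and 7 and 26 with equal array medians, and the median of all genes, −0.27, moved to −0.13 and −0.37. The highest-variance probe set gave a median of 0.207 from 4 h to 14 h, and turned Eif4ebp2 (−0.87 after LPS, 1.60 for B against T cells, −0.82 for the interaction), Eif2ak2 (−0.76 at 14 h, −1.62 from 4 h to 14 h), Eif2s2 (1.70) and Eif5b (−0.89) for B against T cells, and Eif4e3 (−0.28 for the interaction). With the replicate block, 29 genes rose and 8 fell after LPS and 29 rose at 14 h of ConA; the same numbers carry no pairing in the data. For the 18 genes given array by array, 1048 of 1080 changes recomputed under other settings kept their side of the threshold with no called sign change, 7 lost and 17 gained a call and 8 turned; without 1 array 1592 of 1620 did, 12 lost and 16 gained one. Among those kept, 39 that were called under neither setting changed sign. Signals near the floor limit Eif4a3 and Eif5a2.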
